A study of Homo sapiens with 3 samples.

Results

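DNA repair and translesion genes were examined for exon skipping in the human foreskin fibroblast line BJ, an established cell line, on day 8 after viral expression of OSKM (the pluripotency factors OCT4, SOX2, KLF4 and MYC) was induced. There were 3 groups of 1 library each: cells with a non-targeting siRNA (genotype label WT), cells with an siRNA against SMAD3, and cells with an siRNA against SFRS11, a splicing factor now called SRSF11. All 3 groups carried OSKM, and 0 groups had a replicate. Nothing measured how well either gene was knocked down, since the tables give no expression. The authors deposited 2 tables, which set the libraries coded RS2 and RS3 against the same comparator library. No label ties a code to an siRNA, so the codes are kept, and which table belongs to which knockdown is not stated here.

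Genes were taken by symbol: FANC, XRCC, ERCC, RAD, MSH, MLH and BRCA genes with the following letter or digit, and POLB, POLH, POLI, POLK, POLL, POLM, POLQ, ATM, ATR and NBN. The rule used no measured value. It found 46 gene symbols (47 gene identifiers) with 194 skipped exons, out of 39416 exons of 11222 symbols in either table. Of the 194 exons, 147 were listed in both tables, 24 in the RS2 table only and 23 in the RS3 table only. Over all genes, 29281 of the 39416 exons were listed in both. A match by symbol need not be a repair factor. XRCC6BP1, RAD54L2, ERCC6L and ERCC6L2 were placed in no repair group, and whether each acts in repair was not examined. The tables hold splicing differences and no expression levels, so the cell type could not be checked against its markers.

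Cells repair DNA by pathways suited to the kind of damage. Nucleotide excision repair cuts out bulky lesions, base excision repair replaces single damaged bases, and mismatch repair corrects copying errors. Double-strand breaks are joined end to end or copied from the sister chromatid by homologous recombination. The Fanconi anaemia pathway unhooks crosslinks between strands, and translesion polymerases copy across damage that stops the replicative enzymes. When an exon is skipped, its codons are lost from the protein, and a length that is no multiple of 3 also shifts the reading frame.

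Each row of a table is 1 exon-skipping event. It lists how far the inclusion level, the share of local transcripts that retain the exon, differed between the libraries, with a p-value and an FDR. A positive difference means higher inclusion in RS2 or RS3 than in the comparator. An event was called at a deposited FDR under 0.05 with a difference of at least 0.1 in size. The deposited p-values compare 2 libraries and not 2 conditions, the tables give no read depth, and so a difference has no interval here. Many exons stand in several rows of a table, and since the rows give no flanking exons, rows of the same exon cannot be paired between the tables.

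The 4 exons of POLL, ERCC1 and RAD51D that have those genes' lowest RS3 p-values are shown first, so that the sizes below can be read against their sequence. The sequences are of the GENCODE release 29 exons of the same gene, length and spacing to the gene's other listed exons. Capitals mark the last 3 bases, the exon's part of the 5' splice site. How well they pair with U1 RNA was not tested.

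POLL 174-base exon: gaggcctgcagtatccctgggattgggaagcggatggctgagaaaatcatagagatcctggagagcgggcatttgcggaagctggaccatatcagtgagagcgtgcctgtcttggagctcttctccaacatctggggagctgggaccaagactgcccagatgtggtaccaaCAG
POLL 129-base exon: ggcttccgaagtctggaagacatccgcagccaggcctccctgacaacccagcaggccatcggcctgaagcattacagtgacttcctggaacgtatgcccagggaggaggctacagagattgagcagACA
ERCC1 72-base exon: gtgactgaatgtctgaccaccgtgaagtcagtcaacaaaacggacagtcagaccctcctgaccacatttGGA
RAD51D 179-base exon: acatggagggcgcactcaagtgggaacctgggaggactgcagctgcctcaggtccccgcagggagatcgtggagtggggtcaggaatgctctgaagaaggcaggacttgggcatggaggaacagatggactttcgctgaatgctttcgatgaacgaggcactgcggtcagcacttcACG

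The first 3 exons have lengths of 58, 43 and 24 whole codons, so that skipping them keeps the frame, while 179 is not a multiple of 3. GC content was 55.7% and 58.1% in the POLL exons, 50.0% in the ERCC1 exon and 58.7% in the RAD51D exon. Of 186 exons matched in this way, 123 (66.1%) ended in AG, the usual end of an exon, as did 1 of the 4 exons above, the 174-base exon of POLL.

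Inclusion of nearly all repair exons passed no call. In the RS2 table, 0 of 254 events were called, where 0.0712% of all 40702 events were (0.0442% with lower inclusion). In the RS3 table, 1 of 273 events was called (0.366%), where 0.967% of all 42518 events were, or 0.736% counting only lower inclusion. At a deposited p under 0.05 without adjustment there were 7 RS2 events (2.76%, against 4.52% of all) and 18 RS3 events (6.59%, against 7.61%). None of these shares of the repair genes lay above that of all events.

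The called event was in POLL, which encodes DNA polymerase lambda, a polymerase that fills short gaps in base excision repair and in end joining. Its 174-base exon (ENSG00000166169, hg19 chromosome 10, 103343265 to 103343438, minus strand) was coding and exon 6 of 9 in the transcript it was matched to. The authors' deposited table gave it -0.147 in the called RS3 row, with a p of 0.000414 and an FDR of 0.0289. It had 11 rows in RS3, and the other 10 in the authors' deposited table ran from -0.093 to 0.039. In RS2 the authors' deposited table gave 6 rows between -0.028 and 0.019, all with an FDR of 1. The call thus rests on 1 of 11 rows, the other 10 held values of both signs, and the mean over all RS3 rows was -0.0254.

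The next exon of POLL (103342520 to 103342648, 129 bases, exon 7 of 9) had the smallest p of any repair event. In RS3 the authors' deposited table listed -0.089 with a p of 0.000214 and an FDR of 0.0178, a difference too small for a call. Its other 6 RS3 rows in the authors' deposited table ran from -0.043 to 0.002, and its 4 RS2 rows from -0.019 to 0.010. Both neighbouring POLL exons thus had 1 RS3 row with an FDR under 0.05 and lower inclusion, beside smaller differences of both signs. At any size, 3 RS3 events of the repair genes (1.1%) had an FDR under 0.05, against 1.64% of all RS3 events, and 0 RS2 events did, against 0.165%.

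POLL had far more rows than any other gene, 41 in RS2 (16.1% of the events of the repair genes) and 64 in RS3 (23.4%), over 10 exon forms. Its differences in the authors' deposited table ran from -0.245 to 0.351 in RS2 and from -0.333 to 0.321 in RS3. The widest RS2 and RS3 values belong to the same 79-base exon of the 5' UTR (103346879 to 103346957), with 0.351 in RS2 and -0.333 in RS3 in the authors' deposited table, and FDRs of 1 and 0.859. That exon's other rows in the authors' deposited table were 0 in RS2 and -0.119 in RS3. The 161-base and 137-base exons at the 5' end overlap exons of DPCD on the other strand, and since no source here states that strand was used in counting, their reads may not be separable.

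**Figure D1:**
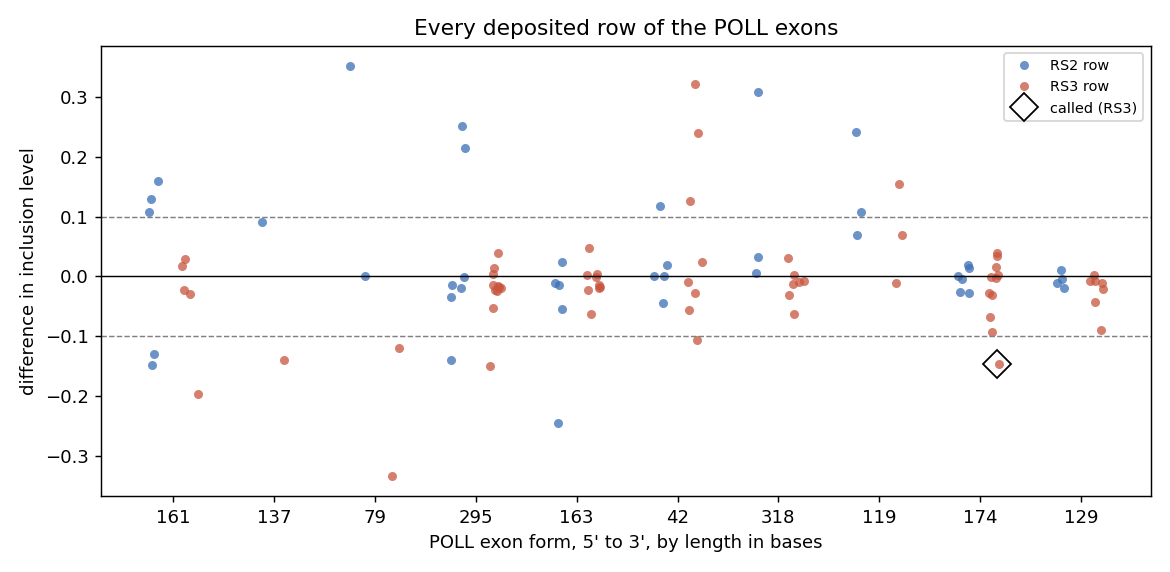
Deposited difference in inclusion level (vertical axis, library minus comparator) of every row of the 10 POLL exon forms, ordered from the 5' to the 3' end and labelled by length in bases. Blue points are RS2 rows, red points RS3 rows, dashed lines mark a size of 0.1, and the diamond marks the called row at -0.147; most rows of the 174-base and 129-base exons lie close to 0.

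POLM and POLQ, polymerases that also act in end joining, passed no call. POLM, polymerase mu, which fills gaps in end joining, had 10 exons. Its 103-base exon (chromosome 7, 44113730 to 44113832) had 0.137 (p 0.0332, FDR 0.545) and 0.023 in the authors' deposited RS3 table, and -0.048 and 0.061 in RS2. The 117-base exon of POLM (44117921 to 44118037), in a 3' UTR of 1 annotated transcript, had 0.400 in RS2 and 0.239 in RS3 in the authors' deposited tables, each in a single row with FDR 1. For POLQ, the polymerase of microhomology-mediated end joining, the only exon had -0.118 in RS2 and -0.162 in RS3 in the authors' deposited tables, also with FDR 1.

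Other end joining and base excision genes had 0 calls. XRCC5 and XRCC6, the Ku subunits that bind broken ends, had differences between -0.001 and 0.003 in the authors' deposited tables over the 6 exons listed in each table, 7 different exons in all. XRCC1, the scaffold of single-strand break repair, ranged from -0.013 to 0.013 in RS2 and from -0.008 to 0.009 in RS3 in the authors' deposited tables. For POLB, polymerase beta, the main gap-filling enzyme of base excision repair, 3 exons were listed in RS3, at -0.104, 0.243 and 0.317 in the authors' deposited table. The largest of these had a p of 0.48 in the authors' deposited table, and 0 of the 3 passed the threshold.

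Nucleotide excision repair genes had the smallest median differences of the groups. The median size was 0.0075 over 42 RS2 events and 0.006 over 45 RS3 events, against 0.018 and 0.020 over all events. Only 1 event reached 0.1 in each table, 2.38% and 2.22%, where 19.2% of all RS2 and 21.2% of all RS3 events did. ERCC6L and ERCC6L2 were planned in this group but counted apart from it. Counting them here would have added 1 event past 0.1 in each table, an ERCC6L2 exon (-0.800 in RS2 and -0.437 in RS3). ERCC2, a helicase of TFIIH, had values in the authors' deposited tables from -0.043 to 0.075 in RS2 and from -0.019 to 0.01 in RS3, over 11 events in each. ERCC3, the other helicase of TFIIH, stayed between -0.019 and 0.021 in the authors' deposited tables.

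ERCC1, the partner of the nuclease that cuts 5' of a lesion, had differences at an exon that some transcripts lack. The 72-base exon (ENSG00000012061, chromosome 19, 45917221 to 45917292) is coding and is part of 7 of the 13 coding transcripts annotated for the gene. It had 0.073 in RS3 (p 0.00236, FDR 0.109) and -0.043 in RS2 (p 0.0956, FDR 1) in the authors' deposited tables, a single row in each. The 104-base exon of ERCC1 (45923582 to 45923685) had the largest RS2 value of the group, -0.770 with a p of 0.0194 and an FDR of 0.911 in the authors' deposited table. Its other RS2 rows in the authors' deposited table were 0.009 and -0.001, and its RS3 rows were -0.073, -0.006 and 0.006.

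ERCC8, which acts in repair coupled to transcription, had only a 42-base exon listed in both tables (chromosome 5, 60227934 to 60227975). It had 0.037 in RS2 and 0.015 in RS3 in the authors' deposited tables. The other ERCC8 exons stood in a single table. A 1607-base exon known only from a noncoding transcript (chromosome 5, 60187864 to 60189470) had -0.555 in RS3 in the authors' deposited table (p 0.0148, FDR 0.352) and overlaps the pseudogene GNL3LP1 on the same strand. A 96-base coding exon (60224691 to 60224786) had -0.073 in RS2 in the authors' deposited table, the smallest p of any RS2 repair event (0.0184, FDR 0.899).

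**Figure D2:**
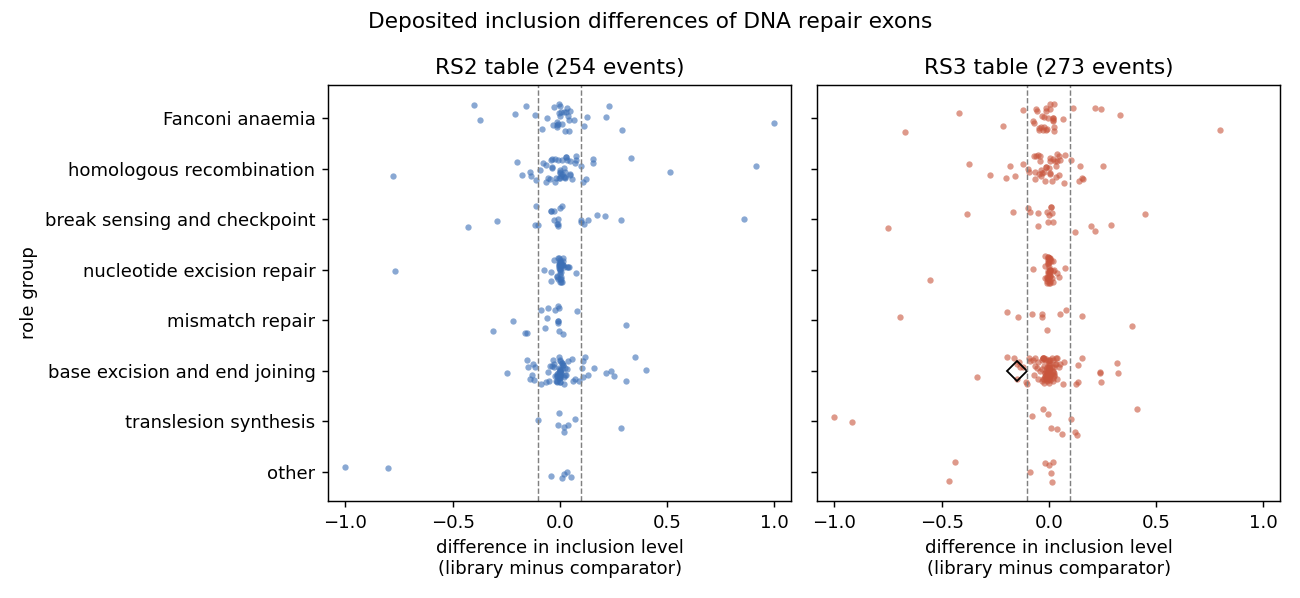
Deposited difference in inclusion level (horizontal axis) of each event of the repair genes, by role group, for RS2 (blue, 254 events) and RS3 (red, 273 events); vertical position within a group is scatter only. Dashed lines mark a size of 0.1 and the diamond marks the POLL event; nucleotide excision repair points crowd around 0 with 1 event past 0.1 in each table.

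Homologous recombination genes held several of the lowest RS3 p-values among the repair genes. Of the group's 46 RS3 events, 4 had a deposited p under 0.05, where 7.61% of all RS3 events did. Of these 4, 2 were RAD51D rows. RAD51D, which helps to start strand exchange in recombination, had a 179-base exon (ENSG00000185379, chromosome 17, 33443878 to 33444056) found in 4 of its 16 annotated coding transcripts. All 3 RS3 rows in the authors' deposited table were negative, at -0.181 (p 0.00244, FDR 0.112), -0.374 (p 0.00732, FDR 0.235) and -0.015 (FDR 1). Its 5 RS2 rows in the authors' deposited table were 0.914, 0.157, 0.007, -0.042 and -0.140, all with FDR 1. The RS2 rows thus lay on both sides of 0, and none passed the threshold.

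RAD51C, of the same family, had lower values in both tables at a 120-base exon (chromosome 17, 56783850 to 56783969) of 1 annotated coding transcript. It had -0.134 in RS2 (FDR 1) and -0.273 in RS3 (p 0.0103, FDR 0.285) in the authors' deposited tables. RAD52, which anneals complementary strands, had -0.062 in RS2 (FDR 1) and -0.119 in RS3 (p 0.00887, FDR 0.263) in the authors' deposited tables at a 151-base coding exon (chromosome 12, 1035962 to 1036112).

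XRCC3, also of that family, had 0.333 in RS2 and 0.252 in RS3 in the authors' deposited tables at a 169-base exon of 1 annotated transcript (chromosome 14, 104172544 to 104172712), with FDR 1 in both. That exon overlaps KLC1 on the other strand. XRCC2 had 0.056 in RS2 and -0.199 in RS3 in the authors' deposited tables at its only exon (FDR 1 and 0.805). BRCA1, which steers breaks towards recombination, had 0.515 in RS2 (p 0.0348, FDR 1) and 0.154 in RS3 (FDR 1) in the authors' deposited tables at the 99-base exon that holds the start of its coding sequence (chromosome 17, 41276034 to 41276132). In this group 13 of 51 RS2 events (25.5%, against 19.2% of all) and 12 of 46 RS3 events (26.1%, against 21.2%) reached 0.1. Of the group's events 0 were called, where 0.0712% of all RS2 and 0.967% of all RS3 events were.

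Break sensing and checkpoint genes had the largest share of RS2 events past 0.1 among the groups, 12 of 23 (52.2%, against 19.2% of all). In RS3 it was 8 of 19 (42.1%, against 21.2% of all), below translesion synthesis (50.0%) and mismatch repair (45.5%). RAD17 and RAD1, with several rows for some exons, gave 5 and 4 of the 12 RS2 events. ATM, the kinase that answers to double-strand breaks, had -0.103 in RS2 (p 0.02, FDR 0.918) and -0.086 in RS3 (FDR 0.771) in the authors' deposited tables at an 88-base exon of its 5' UTR (chromosome 11, 108095511 to 108095598). RAD1, a subunit of the checkpoint clamp, had positive values in every row of a 100-base exon (chromosome 5, 34914032 to 34914131). They were 0.174 and 0.1 in RS2, and 0.213 and 0.292 in RS3, in the authors' deposited tables, with FDRs of 0.62 and above.

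RAD17, which loads that clamp, had values of both signs at exons that hold a border of coding sequence and UTR. A 104-base exon (chromosome 5, 68667281 to 68667384) had 0.857 and 0.133 in RS2 in the authors' deposited table, and 0.196, -0.051 and 0 in RS3. A 184-base exon (68667861 to 68668044) had -0.427 and 0.213 in RS2, and -0.749 and 0.122 in RS3, in the authors' deposited tables. The smallest FDR of these rows was 0.837. NBN, a subunit of the complex that senses breaks, had -0.117 in RS2 and -0.167 in RS3 in the authors' deposited tables at its only exon, with FDR 1.

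For Fanconi anaemia genes 11 of 34 RS2 events (32.4%, against 19.2% of all) and 9 of 35 RS3 events (25.7%, against 21.2%) reached 0.1. The group had 0 calls, where 0.0712% of all RS2 and 0.967% of all RS3 events were called. FANCA, a core complex subunit, had 0.228 in RS2 (p 0.0801, FDR 1) and 0.245 and -0.074 in RS3 (FDR 0.829 and 1) in the authors' deposited tables at a 129-base coding exon (chromosome 16, 89824985 to 89825113). FANCG and FANCE, also of the core complex, stayed between -0.061 and 0.045 in the authors' deposited tables. The exon with the lowest p of FANCG (131 bases, chromosome 9, 35076968 to 35077098) had 0.042 in RS2 (p 0.0380, FDR 1) and -0.002 in RS3 in the authors' deposited tables. For FANCE a 45-base exon (chromosome 6, 35425333 to 35425377) had -0.061 in RS2 (p 0.0523, FDR 1) in the authors' deposited table.

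FANCI, which is ubiquitinated together with FANCD2 at crosslinks, had the widest spread of the group in RS3. A 117-base exon of its 5' UTR (chromosome 15, 89788426 to 89788542) had 0.798 (p 0.0895, FDR 0.817) and 0.005 in RS3, and -0.003 in RS2, in the authors' deposited tables. Its 165-base coding exon (89837064 to 89837228) had -0.400 in RS2 and -0.216 in RS3 in the authors' deposited tables, with FDR 1. FANCL, the ubiquitin ligase of the pathway, had 1 and 0.288 in RS2 and 0.333 in RS3 in the authors' deposited tables at its only exon (101 bases, chromosome 2, 58449077 to 58449177), again with FDR 1. The authors' deposited table gave the value of 1, the full range, a p of 0.174.

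Mismatch repair genes had 5 of 18 RS2 events (27.8%, against 19.2% of all) and 5 of 11 RS3 events (45.5%, against 21.2%) past 0.1. Calls numbered 0, where 0.0712% of all RS2 and 0.967% of all RS3 events were called. MLH3, a mismatch repair protein with a role in meiosis, had -0.694 in RS3 (p 0.111, FDR 0.864) in the authors' deposited table at a 3343-base exon with 3280 coding bases (chromosome 14, 75513079 to 75516421). MSH6, a subunit of the mismatch sensor, was listed in the RS2 table only, between -0.056 and -0.009 in the authors' deposited table.

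Translesion polymerases had 2 of 8 RS2 events and 6 of 12 RS3 events past 0.1, with 0 calls. POLK, polymerase kappa, had 5 of these 6 in RS3. Its 172-base coding exon (chromosome 5, 74889703 to 74889874) had -0.919 (p 0.0474, FDR 0.641) and the 84-base form nested in it -1 (p 0.125, FDR 0.893) in the authors' deposited RS3 table. Neither form was listed in RS2. POLH, polymerase eta, which copies across ultraviolet damage, had values in the authors' deposited tables from -0.006 to 0.018 in RS2 and from -0.079 to 0.009 in RS3. POLI, polymerase iota, had 0.286 in RS2 (FDR 1) in the authors' deposited table at a 165-base coding exon (chromosome 18, 51800296 to 51800460). RAD18, the ubiquitin ligase that recruits these polymerases, had 0.039 in each of the authors' deposited tables at its only exon.

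Among the genes placed in no repair group, an 82-base exon of XRCC6BP1 (chromosome 12, 58340778 to 58340859) had -1 in RS2 (p 0.173, FDR 1) and -0.466 in RS3 (p 0.0112, FDR 0.299) in the authors' deposited tables. ERCC6L2 had -0.800 in RS2 and -0.437 in RS3 in the authors' deposited tables at a 195-base exon (chromosome 9, 98717010 to 98717204), with FDR 1. Its 167-base exon (98729741 to 98729907) had -0.039 in RS2 and -0.087 in RS3 (p 0.0230, FDR 0.448) in the authors' deposited tables. RAD54L2 stayed between -0.017 and 0.011 in the authors' deposited tables.

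Sizes without regard to p were then set beside all events. A difference of at least 0.1 was listed for 66 RS2 events (26.0%, against 19.2% of all) and 62 RS3 events (22.7%, against 21.2%). Without POLL the share was 24.4% in each table. Counting each exon once, by its row with the smallest p, 24.0% of the repair exons reached 0.1 in RS2 against 20.1% of all exons, and 30.0% in RS3 against 22.3%. Of the 66 RS2 events only 3 had a p under 0.05 (4.55%, against 11.5% of all RS2 events that large), and of the 62 RS3 events 11 did (17.7%, against 18.8%). Most large values of the repair genes thus missed a p of 0.05 in the authors' own test before adjustment.

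Directions were balanced. The median difference was 0.0005 in RS2 and -0.001 in RS3, beside 0 and -0.001 over all events. Of the events past 0.1, 34 were higher and 32 lower in RS2, and 31 were higher and 31 lower in RS3. Over all RS3 events of that size 58.1% were lower, and 49.5% in RS2. The median size was 0.031 in RS2 and 0.027 in RS3, against 0.018 and 0.020 over all events. At gene level, 29 of the 46 genes had at least 1 event past 0.1 in either table and 17 had none, and RAD23B, RAD54L2, XRCC1, XRCC5 and XRCC6 stayed under 0.02 throughout.

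**Figure D3:**
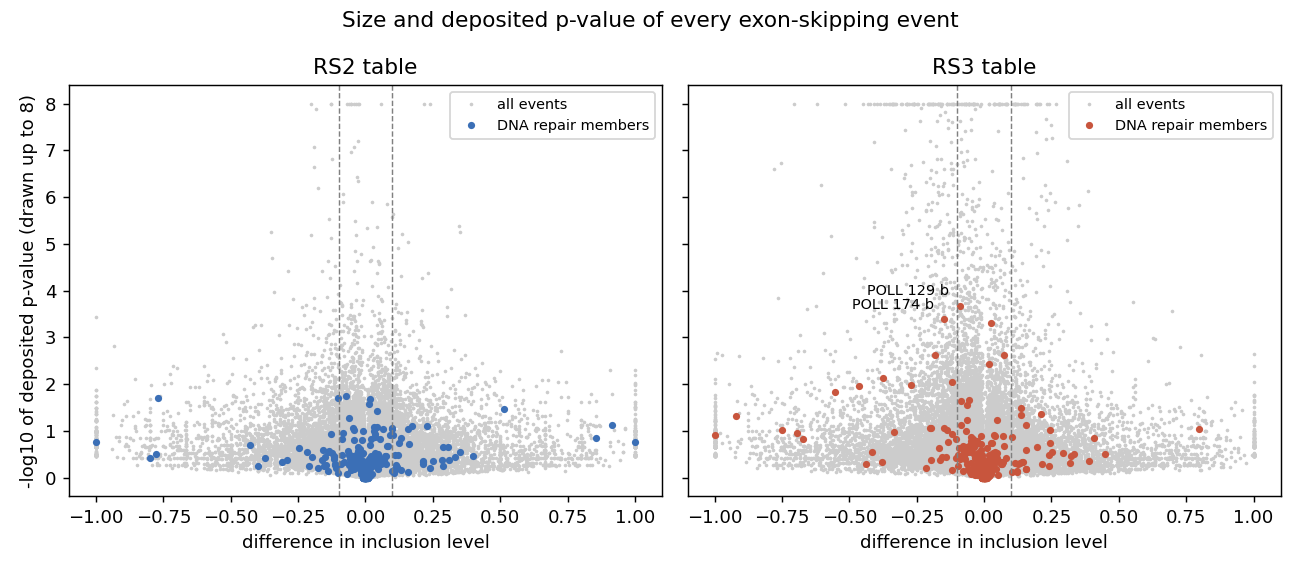
Deposited difference in inclusion level (horizontal axis) against -log10 of the deposited p-value (vertical axis, p-values below the limit drawn at 8) for all events (grey) and events of the repair genes (coloured), RS2 left and RS3 right. The 2 labelled RS3 points are the POLL rows with an FDR under 0.05, and most large differences of the repair genes sit low, at high p-values.

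Position in the gene and length were not used by the rule. Of the 186 exons matched to GENCODE release 29, 133 were coding in the chosen transcript, 25 part coding and part UTR, 15 in a 5' UTR, 4 in a 3' UTR and 9 known from noncoding transcripts only. Among coding exons 18.2% of RS2 and 14.3% of RS3 events reached 0.1, with a median size of 0.020 and 0.021. Among exons that hold a UTR border, 51.7% of RS2 and 48.4% of RS3 events did, with medians of 0.1 and 0.091. Rows of the same exon are not independent, and the read depth of the exons was not tested. The RS2 events past 0.1 at UTR borders include repeated rows of the 161-base POLL exon, which had 5 rows, and of RAD17 exons. Exons of genes outside the rule were not annotated, so no share over all exons stands beside these.

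Length was a multiple of 3 in 61 of the 194 repair exons (31.4%, 95% Clopper-Pearson interval 25 to 38.5, for counting error only), beside 41.1% (40.6 to 41.6) of all exons. Some of these exons overlap and share bases, which the interval does not allow for, and the difference was not tested. Among coding repair exons the share was 34.6%, and it was 29% among the 69 repair exons that reached 0.1. The median length was 114 bases, against 120 for all exons.

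Values of the same exon in both tables were last set side by side. Both tables use the same comparator, so likeness between them is not evidence that RS2 and RS3 changed alike. There were 98 exons with 1 row in both tables, of which 15 differed by at least 0.1 in both, 11 with the same sign and 4 with opposite signs. The same counts were not made over all exons, so these are not read as a trait of the repair genes. FANCI had 2 overlapping forms with nearly equal values, 0.214 and 0.214 for the 98-base form and 0.112 and 0.114 for the 103-base form in the authors' deposited RS2 and RS3 tables. Exons of ATR, POLB and POLK are among those with opposite signs.

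Other genes of these pathways, from a list of 131 symbols that the rule does not match, had 0 calls in either table. Over all events 0.0712% were called in RS2 and 0.967% in RS3. Of the listed genes, 98 with 373 events were tested in RS2 and 100 with 395 events in RS3. A deposited p under 0.05 was given for 18 and 31 events (4.83% and 7.85%, against 4.52% and 7.61% of all). Events past 0.1 made up 19.8% in RS2 and 23.0% in RS3, against 19.2% and 21.2% of all. In RS3, 5 of the 395 events had an FDR under 0.05 at smaller sizes, where 1.64% of all RS3 events had such an FDR at any size. They were an exon of PRKDC, the end joining kinase (0.067, FDR 0.000817), 3 nested forms of an exon of LIG1, the ligase of replication and excision repair (-0.088, -0.061 and -0.045), and an exon of EME2, a subunit of a structure-specific nuclease (0.062), in the authors' deposited table. In RS2 the same exons had 0.027 for PRKDC, -0.025, -0.022 and -0.014 for LIG1, and 0.382 for EME2, with FDRs of 0.951 and above, in the authors' deposited table.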

How the data were processed

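Libraries were TruSeq libraries of mRNA from BJ fibroblasts, per the labels' protocols. Per the submitters' processing notes, STAR, FastQC and hg19 were used, without versions; the splicing program and strand setting were not named there. In the 2 tables the authors deposited, each event has a deposited p-value and FDR, and its inclusion level difference, treated as a score from -1 to 1. The order of subtraction was read from rows at the head of the tables. The 4 columns of inclusion level per library were not used, because no label ties them to a sample.

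Exons were matched between tables on symbol, chromosome, strand, start and end, counted from 1. Annotation came from GENCODE release 29 on GRCh38, by gene, exon length and spacing shared by at least 2 listed exons; 186 of 194 exons matched and no coordinates were carried over. For exons of several transcripts, a coding one was preferred. ERCC6L and ERCC6L2, planned with the ERCC genes, were counted with the genes placed in no repair group. No test was made, with 1 library per group. The members and lists were chosen with earlier results of these data known. Named exons were the called ones, the 10 per table with the smallest p (1 per gene), the largest difference per role group and table, and up to 5 exons per sign relation past 0.1 in both tables. Other exons named beside them were chosen after their values were seen. Call counting was tested on simulated data. Python 3.11.15, pandas 2.3.3, scipy 1.17.1 and matplotlib 3.10.9 were used. Values of some exons are not reported here.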

Additional observations from a re-analysis of the deposited data

Results flagged for a closer look

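For 3 exons with 1 row in both tables, the signs were opposite in RS2 and RS3, with a size of at least 0.1 in both. The ATR exon (chromosome 3, 142222204 to 142222295), of the kinase that answers to stalled replication, had 0.285 in RS2 and -0.380 in RS3 in the authors' deposited tables. POLB (chromosome 8, 42196530 to 42196587) had 0.102 and -0.104, and POLK (chromosome 5, 74842835 to 74842982) had -0.101 and 0.409, in the authors' deposited tables. The deposited FDR was 1 in RS2 for all 3, and 1, 0.927 and 0.918 in RS3. None of these 3 opposite pairs was tested against each other, and opposite signs were not counted over all exons.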

How the results depend on the processing

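The RS2 count of 0 called events held under all 7 alternatives. The RS3 count of 1 went to 0 with an FDR under 0.01, with a minimum difference of 0.2 and with exons in a single row only, and to 2 with a minimum of 0.05; it stayed 1 under the other 3. Events past 0.1 went from 66 to 30 in RS2 and from 62 to 29 in RS3 with a minimum of 0.2, to 26 and 31 with exons in a single row, and in RS2 to 41 with 1 row per exon, since these count fewer events. Medians of the differences stayed between -0.001 and 0.003 in both tables. The RS3 median size went from 0.027 to 0.0385 with 1 row per exon. With an FDR under 0.1, an alternative chosen after seeing the data, 2 RS3 events of other repair genes, in FAM175A and PARP3, were called. Of 22 values of named exons in several rows, 13 moved by 0.1 or more when the rows were averaged and 2 when the largest row was taken, with 1 change of sign each. RAD21 matched no row, so leaving it out changed nothing. No paired analysis was possible because each group has 1 library. Read depth is unknown, so a difference that was not called may be one that could not be seen.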
